A study of Mus musculus with 20 samples.

Results

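Mef2a, Mef2c and Mef2d encode transcription factors of the MEF2 family, and Nfia, Nfib, Nfic and Nfix encode those of the nuclear factor I (NFI) family. These 7 genes were picked out by their symbols, and all 7 were among the 34620 gene symbols counted and the 19192 tested. The 6 libraries described here were made from polyA RNA of frozen mouse brain that the labels call wild type, male and C57BL/6, with no age. They comprise 1 library of striatal precursors (SP), 1 of hippocampal precursors (HP), 1 of young medial spiny neurons, as the labels spell them (yMSN), 1 of young hippocampal CA pyramidal neurons (yCA) and 2 of dorsal medial spiny neurons (dMSN), the projection neurons of the striatum. The labels describe microdissection of cryosections and name no cell sort, and in bulk samples fewer cells of a type and less RNA per cell cannot be told apart.

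MEF2 proteins bind DNA as dimers through a MADS box and a MEF2 domain, and class IIa histone deacetylases hold them in a repressive state. Calcium signals release that repression through calcineurin and calmodulin-dependent kinases, and in neurons MEF2 factors are known for controlling synapse number and neuronal survival. In skeletal and heart muscle the same factors drive the contractile genes. NFI proteins bind a palindromic DNA element, also as dimers. In the developing forebrain Nfia, Nfib and Nfix are known for moving radial glia from self-renewal to differentiation, and Nfia for starting the expression of astrocyte genes.

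The genes lie on mouse chromosomes 7 (Mef2a), 13 (Mef2c), 3 (Mef2d), 4 (Nfia and Nfib), 10 (Nfic) and 8 (Nfix). RefSeq promoter windows on build GRCm38.p6 matched 6 of the 7 symbols, with 11 annotated starts between them and none for Nfib. The windows below are the 250 bases before a start, and they are shown because the annotated starts of these genes differ widely in CpG content, the substrate of the DNA methylation that the series also measured. Capitals mark CpG dinucleotides.
Mef2a, chr7:67372859-67373108, minus strand: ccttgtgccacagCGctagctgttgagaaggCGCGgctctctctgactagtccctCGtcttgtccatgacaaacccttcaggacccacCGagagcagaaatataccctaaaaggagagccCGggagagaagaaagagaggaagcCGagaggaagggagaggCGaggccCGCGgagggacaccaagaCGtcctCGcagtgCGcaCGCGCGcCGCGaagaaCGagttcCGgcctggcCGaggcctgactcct
Mef2c, first listed start, chr13:83503784-83504033, plus strand: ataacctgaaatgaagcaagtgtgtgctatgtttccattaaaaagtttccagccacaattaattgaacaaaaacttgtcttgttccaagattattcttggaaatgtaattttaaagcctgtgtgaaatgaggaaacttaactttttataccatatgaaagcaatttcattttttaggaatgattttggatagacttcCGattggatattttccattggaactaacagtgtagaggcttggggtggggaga
Nfia, chr4:97581693-97581942, plus strand: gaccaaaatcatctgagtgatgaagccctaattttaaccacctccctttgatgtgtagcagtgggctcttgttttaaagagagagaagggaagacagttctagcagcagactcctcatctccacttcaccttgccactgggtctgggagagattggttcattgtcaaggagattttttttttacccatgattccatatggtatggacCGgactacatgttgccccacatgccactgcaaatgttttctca
Nfic, chr10:81427174-81427423, minus strand: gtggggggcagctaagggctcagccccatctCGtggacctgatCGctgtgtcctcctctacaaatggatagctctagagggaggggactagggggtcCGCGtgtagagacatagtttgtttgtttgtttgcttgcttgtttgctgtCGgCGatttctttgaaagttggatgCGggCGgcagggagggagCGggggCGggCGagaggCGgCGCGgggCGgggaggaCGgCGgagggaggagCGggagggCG
Nfix, first listed start, chr8:84780083-84780332, minus strand: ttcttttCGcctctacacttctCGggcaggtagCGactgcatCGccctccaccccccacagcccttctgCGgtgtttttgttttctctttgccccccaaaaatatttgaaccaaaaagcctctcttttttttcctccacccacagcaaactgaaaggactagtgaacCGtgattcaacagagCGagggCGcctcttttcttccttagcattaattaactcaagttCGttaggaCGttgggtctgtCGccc

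The 250 bases before the Mef2a start held 21 CpGs at 61.6% G and C, and those of Nfic held 19 CpGs at 63.2%. The Mef2d window, on chromosome 3, also held 19. By contrast the first Mef2c window and the Nfia window held 1 CpG each, at 33.6% and 44.8% G and C. The 4 Nfix starts ranged from 1 to 11 CpGs and the 3 Mef2c starts from 1 to 6, against a median of 6 over all 32851 windows of that length. Which start was used in which library cannot be read from counts per gene.

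A single member window held a MEF2 element, searched as CTA and TAG with any 4 bases between them, a pattern that reads alike on both strands. It lies across the Mef2a start, with its first base at position -2 and its last at position 8, and is shown in capitals within chr7:67372841-67372870 on the minus strand.
Mef2a site: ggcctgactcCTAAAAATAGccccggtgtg
Over the 300 bases around each start, 3.69% of the 32851 windows held that element. No member window held the full NFI palindrome, TTGGC and GCCAA with any 5 bases between them, which was present in 0.0365% of all windows. The single arm TTGGCA, which overlaps the palindrome where the first spacer base is A, was searched on both strands. It was in a Mef2d window and in 14.1% of all windows. A match of letters is a description and not evidence of binding.

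Reads assigned to genes numbered 31282185 to 36969136 in the precursor and young libraries and 152347673 and 145713678 in dMSN, so a count of 0 allows at most 0.0249 to 0.0861 CPM (the count as a share of its library, scaled between libraries by TMM). The libraries do not all match their labels. Xist, the RNA of the inactive X chromosome, stood at 489 to 1088 CPM in the precursor and young libraries and at 4 and 0 counts in dMSN, and the Y-linked Ddx3y had no count in SP and yCA, although every library is labelled male. A list of 25 skeletal muscle genes summed to 2978 CPM in yMSN and 8188 CPM in yCA, against at most 39.7 CPM in the precursors, and to 215.7 and 192.1 CPM in the 2 dMSN libraries. The yMSN library also held genes of bone and cartilage (15 genes, 1215 CPM summed, against 71.1 CPM in yCA) and of olfactory epithelium (10 genes, 381.9 CPM summed, against 187.1 CPM in yCA). By its middle gene each list stood far higher in yMSN than in any other library. That value was 38.3 CPM for bone and cartilage, against at most 1.54 CPM elsewhere (yCA). For olfactory epithelium it was 31.3 CPM, against at most 3.35 CPM elsewhere (dMSN 1). Sums set yMSN apart less clearly. The bone and cartilage list summed to 531.1 CPM in SP and 633.2 CPM in HP, where Col2a1 alone stood at 451.3 and 546.1 CPM. The olfactory list summed to 493.0 and 485.7 CPM in dMSN, where Gnal alone stood at 391.4 and 387.4 CPM. Markers of striatal neurons did not separate yMSN from yCA as a list, since 3 of 12 were higher in yMSN and 9 lower, and their median was 18.1 CPM (yMSN) and 19.3 CPM (yCA). Penk, the enkephalin precursor, was among the 3, at 39.4 CPM in yMSN and 23.7 CPM in yCA. Neurod6, a pyramidal neuron factor, stood at 168.9 CPM in yMSN and 396.4 CPM in yCA. In dMSN the striatal list reached medians of 266.5 and 255.8 CPM. The dMSN libraries held pyramidal neuron genes as well (11 genes, 1496 and 2214 CPM summed, against 1403 CPM in yCA). Of these Slc17a7 stood at 936.3 and 1487 CPM, against 32.1 CPM in yCA, and the list medians were 50.4 and 44.8 CPM, against 53.3 CPM in yCA.

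Mef2c was the Mef2 gene whose level differed most between precursor and later libraries. It stood at 15.9 CPM in SP, 16.1 CPM in HP, 178.2 CPM in yMSN, 346.6 CPM in yCA, and 162.8 and 278.4 CPM in the 2 dMSN libraries. Both precursor libraries were low and agreed within counting error, and every other library was more than 10 times higher. In order, yCA stood above dMSN (220.6 ± 81.7 CPM, SD, n = 2) and yMSN, but the range of the dMSN pair took in the yMSN value.

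Mef2a, the most even of the 3, stood at 55.3 CPM in SP, 50.6 CPM in HP, 103.9 CPM in yMSN, 119.4 CPM in yCA, and 105.1 and 115.2 CPM in dMSN. The precursor libraries were lower than all others. Neither dMSN and yCA nor dMSN and yMSN differed beyond the spread of the dMSN pair (110.1 ± 7.11 CPM, SD, n = 2) and the counting intervals.

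Mef2d, a family member expressed in most tissues, stood at 34.7 CPM in SP, 34.6 CPM in HP, 90.4 CPM in yMSN, 116.5 CPM in yCA, and 110.0 and 145.5 CPM in dMSN. Its precursor values again agreed within counting error and lay below all others, and the dMSN mean (127.7 ± 25.1 CPM, SD, n = 2) was not separated from yCA. Mef2b, the remaining gene of the family and not a member here, had a count of 0 in all 6 libraries.

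Nfib and Nfix had their highest levels in young tissue, as Nfia did. Nfib stood at 31.2 CPM in SP, 40.3 CPM in HP, 331.2 CPM in yMSN, 649.6 CPM in yCA, and 77.1 and 79.4 CPM in dMSN. Young libraries were the highest, dMSN lay between, and no neighbouring groups of the 5 overlapped in their counting intervals. Such intervals leave out the spread between libraries. The 2 dMSN libraries differed by far more than counting error, with a chi-square of 172 per degree of freedom over 18695 genes. Nfix stood at 3.98 CPM in SP, 6.55 CPM in HP, 192.2 CPM in yMSN, 532.3 CPM in yCA, and 116.4 and 140.3 CPM in dMSN. The precursor values of Nfix rest on 158 reads in SP and 228 in HP, and here too no neighbouring groups overlapped in counting intervals.

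Nfia stood at 19.7 CPM in SP, 20.6 CPM in HP, 114.3 CPM in yMSN, 160.3 CPM in yCA, and 46.3 and 37.4 CPM in dMSN. The precursor libraries overlapped in their counting intervals, and dMSN (41.8 ± 6.29 CPM, SD, n = 2) lay between them and the young libraries. Nfic stood at 19.3 CPM in SP, 23.8 CPM in HP, 70.6 CPM in yMSN, 61.0 CPM in yCA, and 101.2 and 85.0 CPM in dMSN. Of the Nfi genes it was the one with its highest levels in dMSN and the one with a higher level in yMSN than in yCA.

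**Figure D1:**
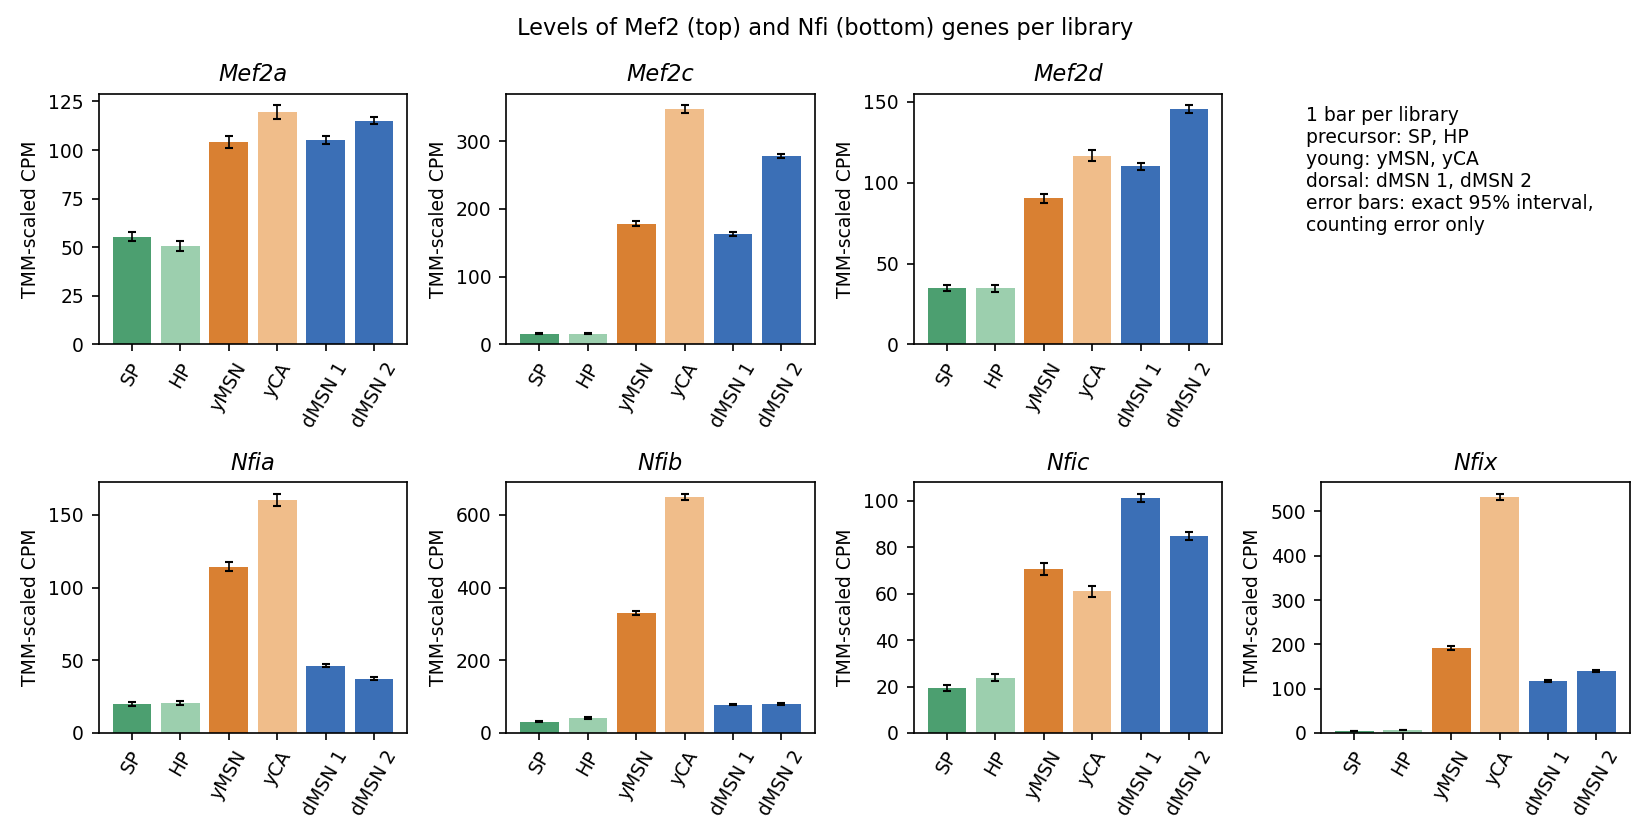
Each panel gives 1 gene, with 1 bar per library and TMM-scaled CPM on a linear axis from 0; error bars are exact 95% intervals for counting error only. Mef2a, Mef2d and Nfic lie above yMSN in both dMSN libraries, Mef2a only narrowly, and none of them passed against yMSN in the main fit. By contrast Nfia, Nfib and Nfix peak in the young libraries, for Nfib at 649.6 CPM in yCA.

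The first comparison set young tissue against precursors, with the lineage as a term. All 7 genes rose in young tissue and 0 fell, while 21.7% of all genes tested rose and 13.7% fell (35.4% called). On the log2 scale Nfix rose most, by 5.98 (SE 0.285, adjusted p = 0.0011 in edgeR's quasi-likelihood test), followed by Mef2c at 3.96 (SE 0.389, adjusted p = 0.0029) and Nfib at 3.71 (SE 0.218, adjusted p = 0.0014). Nfia rose by 2.75 (SE 0.202), Nfic by 1.61 (SE 0.197), Mef2d by 1.57 (SE 0.205) and Mef2a by 1.07 (SE 0.16), with adjusted p between 0.0018 and 0.0074. The median log2 change was 2.75 over the 7 genes and 0.10 over all genes tested.

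Within each lineage the direction was the same for each gene. In the hippocampal pair, which has no test, Nfix was 80.9-fold higher in yCA than in HP (log2 ratio 6.34, exact 95% interval for counting error 6.16 to 6.54) and Mef2c 21.6-fold higher (log2 ratio 4.43, interval 4.31 to 4.56). In the striatal pair Nfix was 47.9-fold higher in yMSN than in SP (log2 ratio 5.58, interval 5.37 to 5.83) and Mef2c 11.2-fold higher (log2 ratio 3.49, interval 3.37 to 3.61). All 7 genes were at least 2-fold higher in yCA than in HP, where 24.7% of genes tested were, and 6 of 7 in yMSN than in SP, where 27.2% were. No member was 2-fold lower in either pair, where 14.6% and 9.87% of genes were. Mef2a, at 1.88-fold, was the exception in the striatal pair.

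The genes of muscle moved with these values. All 25 skeletal muscle genes rose in young tissue, with a median log2 change of 6.98, among them Acta1, skeletal muscle actin, at 500.1 CPM in yMSN and 1460 CPM in yCA, against at most 2.06 CPM in the precursors. The muscle regulators Myod1 and Myog stood at 8.68 and 33.4 CPM in yMSN and at 10.5 and 71.5 CPM in yCA, against at most 0.804 CPM in SP and HP. Mef2 genes are muscle genes as well, and how much of the young Mef2 and Nfi reads came from muscle was not tested. In dMSN the median of the muscle list was 1.21 and 0.872 CPM, Myog had 0.017 CPM and a count of 0, while Mef2c stood at 162.8 CPM or more, Mef2d at 110.0 CPM or more and Nfix at 116.4 CPM or more. Acta1 stood at 28.2 and 28.4 CPM in dMSN.

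**Figure D2:**
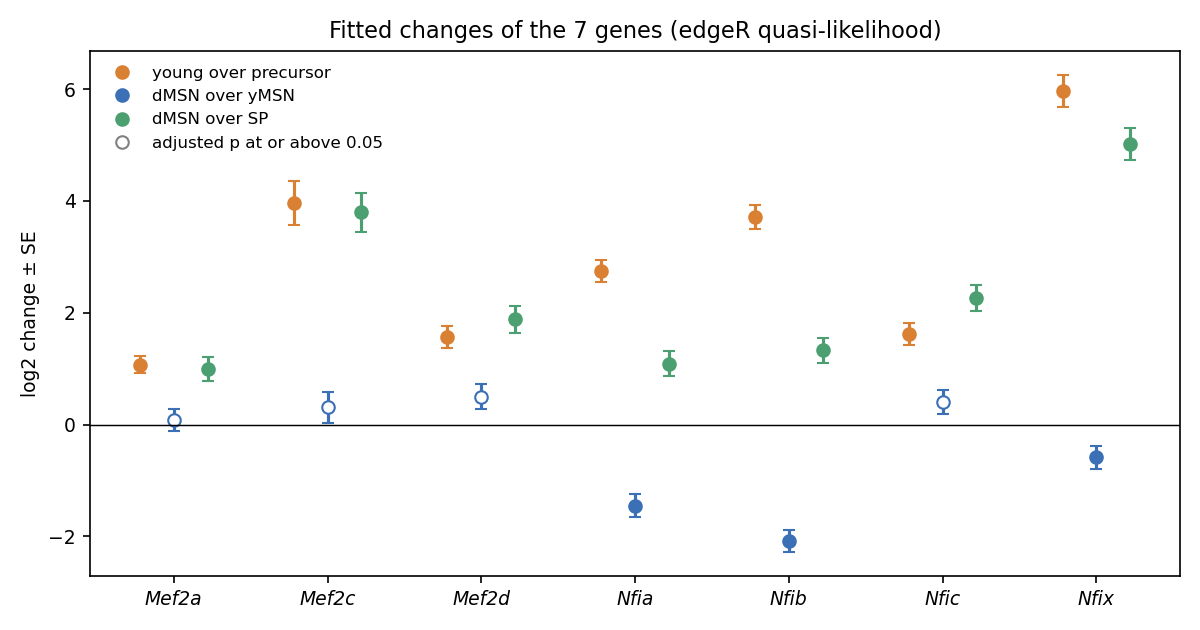
Fitted log2 changes ± SE of the 7 genes in 3 comparisons; filled points have an adjusted p below 0.05. The changes of young over precursor are all positive, from 1.07 for Mef2a to 5.98 for Nfix, and those of dMSN over yMSN are negative for Nfia, Nfib and Nfix only.

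The second comparison asked how the striatal and hippocampal lineages differ at both stages. None of the 7 genes passed, nor did any other gene (0% called in edgeR, with 826 of 19192 genes at an unadjusted p below 0.05, and 60 genes called in DESeq2). The lowest values were those of Nfix (log2 difference -1.12, SE 0.240, adjusted p = 0.896) and Nfib (-0.67, SE 0.198, adjusted p = 1), and the other 5 lay between -0.50 for Mef2c and -0.04 for Mef2a. The Mef2c value was -0.96 without HP or without SP and -0.02 without yCA or without yMSN, and the lowest adjusted p of these was 0.105. For Nfix the call depended on the model, with adjusted p = 0.028 in DESeq2 and adjusted p = 0.010 with 1 mean per cell group.

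In the single pairs, 6 of 7 genes were lower in yMSN than in yCA, and Nfic was higher. Nfix stood 1.47 lower on the log2 scale in yMSN (interval -1.51 to -1.43), and it was the only member at least 2-fold lower, as were 3.64% of genes tested. None was 2-fold higher, as were 14% of genes. Nfib and Mef2c followed at -0.97 and -0.96. Of 24 muscle genes with at least 1 CPM all were lower in yMSN too, with a median log2 ratio of -1.47, and 9 of 11 pyramidal neuron genes were lower, with a median of -0.96. Between SP and HP no member differed 2-fold, while 5.3% of genes were at least 2-fold higher in SP and 3.53% lower. There Nfix was lower by 0.71 (interval -1.02 to -0.42), Nfib by 0.37 and Nfic by 0.30 on the log2 scale, and Mef2c, Mef2d and Nfia had intervals that took in 0. Hindbrain genes also differed between these libraries, their median over 10 genes being 7.57 CPM (SP) and 1.15 CPM (HP), and their part was not tested. A difference between lineages in the change to young tissue was tested for each gene with 1 mean per cell group, where the spread comes from the dMSN pair. None of the 7 passed, with 5.2% of all genes called (3.12% higher and 2.08% lower), and the lowest adjusted p = 0.353 was that of Mef2c, at a log2 difference of -0.94 (SE 0.464).

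The third comparison set dMSN against yMSN. On the log2 scale Nfib fell by 2.08 (SE 0.194, adjusted p = 1.4e-06), Nfia fell by 1.45 (SE 0.203, adjusted p = 4.5e-05) and Nfix fell by 0.58 (SE 0.206, adjusted p = 0.024), all in edgeR. In all, 3 of 7 genes fell and 0 rose, while 35.4% of genes tested fell and 32.1% rose (67.5% called). The values of Nfic (0.40, SE 0.210), Mef2d (0.50, SE 0.223), Mef2c (0.31, SE 0.280) and Mef2a (0.08, SE 0.197) did not pass, with adjusted p between 0.064 and 0.720, which does not show that the levels were alike. With 1 dMSN library left out the model of lineage and stage had to be used, which with all libraries gave Nfix -0.77 (adjusted p = 0.0495). In it Nfix no longer passed without dMSN 1 (-0.64, adjusted p = 0.214) or without dMSN 2 (-0.91, adjusted p = 0.110), both changes larger in size than the -0.58 above. Mef2d passed with RLE scaling (adjusted p = 0.043) and with no filter (adjusted p = 0.028). In the same model the Mef2c value was 0.06 with all libraries and -0.38 without dMSN 2 (adjusted p = 0.480).

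The muscle list moved the same way as Nfia, Nfib and Nfix here, with 22 of 25 genes lower in dMSN and a median log2 change of -5.75. So did 15 of 15 bone and cartilage genes and 8 of 10 neural precursor genes, with 1 precursor gene higher. Of the olfactory epithelium genes 6 of 10 fell and 3 rose, and of the endothelial genes 5 of 8 fell and 2 rose. Over all genes tested 35.4% fell and 32.1% rose. Pyramidal neuron genes were mixed, with 5 of 11 higher and 4 lower. Genes of glia moved the opposite way. All 8 oligodendrocyte genes, 7 of 8 astrocyte genes and 6 of 8 microglia genes rose in dMSN, and the oligodendrocyte list summed to 8899 and 7615 CPM there, against 142.4 CPM in yMSN. Astrocyte genes summed to 3375 and 3213 CPM in dMSN, against 414.9 CPM in yMSN. What part these cells took in the levels of the 7 genes was not tested.

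Against SP, the precursors of the same lineage, all 7 genes rose in dMSN and 0 fell, while 39.1% of genes tested rose and 33.1% fell (72.1% called). On the log2 scale Nfix rose by 5.01 (SE 0.287, adjusted p = 1.2e-08), Mef2c by 3.80 (SE 0.344, adjusted p = 7.1e-07) and Nfic by 2.27 (SE 0.234, adjusted p = 2.3e-06). Mef2d rose by 1.88, Nfib by 1.33, Nfia by 1.09 and Mef2a by 0.99, with adjusted p of at most 8.6e-04. The median over the 7 was 1.88, against 0.20 over all genes tested. In the same comparison all 8 oligodendrocyte genes, 7 of 8 astrocyte genes, 7 of 8 microglia genes, all 12 striatal neuron genes and 11 of 25 muscle genes rose, and all 10 neural precursor genes fell. Their part in the changes of the 7 genes was not tested. This comparison shares its dMSN libraries with the previous one and its SP library with the first.

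The mix of reads within each family changed as well, and this measure is free of scaling between libraries. CPM is not divided by transcript length, so shares are compared between libraries and not between genes. Mef2c took 15.0% of Mef2 reads in SP and 15.9% in HP (exact intervals 13.9% to 16.1% and 14.7% to 17.1%). Its share was 47.8% in yMSN, 59.5% in yCA, and 43.1% and 51.6% in the 2 dMSN libraries. Per read of Mef2a there were 0.287 reads of Mef2c in SP and 0.317 in HP, and between 1.55 in dMSN 1 and 2.90 in yCA in the other 4 libraries.

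Nfix took 5.36% of Nfi reads in SP, 7.17% in HP, 27.1% in yMSN, 37.9% in yCA, and 34.2% and 41.0% in dMSN. Its share was higher in both dMSN libraries than in yMSN, while its level was lower. Nfib held 42.0% to 46.8% of Nfi reads in the precursor and young libraries and 22.6% and 23.2% in dMSN. Nfic went the other way, with 26.1% in both SP and HP, 9.96% in yMSN, 4.35% in yCA, and 29.7% and 24.9% in dMSN. All Nfi reads summed to 74.2 CPM in SP, 91.3 CPM in HP, 708.2 CPM in yMSN, 1403 CPM in yCA, and 341.0 and 342.1 CPM in dMSN.

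**Figure D3:**
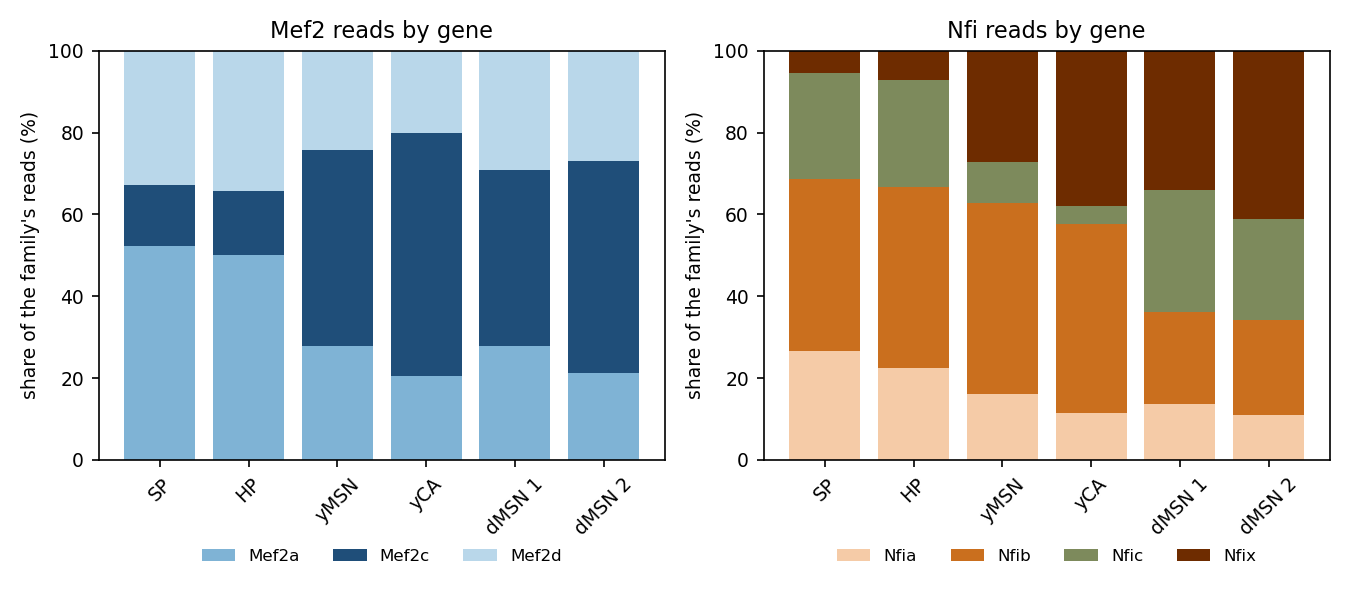
Stacked bars give each gene's share of its family's reads in percent, 1 bar per library, with Mef2 at left and Nfi at right. The Mef2c share is 47.8% in yMSN, above the 15.0% of SP, and the Nfib share is 22.6% and 23.2% in dMSN, below the 46.8% of yMSN.

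Of the 7 genes, Mef2c differed most between the 2 dMSN libraries. Mef2c was 1.71 times as high in dMSN 2 as in dMSN 1, Mef2d 1.32 times and Nfix 1.21 times, whereas Nfib stood at 1.03 times and Nfia at 0.808 times. Genes of pyramidal neurons differed in the same direction, with a median ratio of 1.43 over 11 genes and 8 of 11 higher in dMSN 2. Those lower in dMSN 2 were Zbtb20 (0.732 times), Fibcd1 (0.761 times) and Grik4 (0.866 times). Slc17a7, the vesicular glutamate transporter of cortical and hippocampal neurons, stood at 936.3 CPM in dMSN 1 and 1487 CPM in dMSN 2. By contrast the 12 striatal neuron genes had a median ratio of 1.08, and Ppp1r1b, which encodes DARPP-32, stood at 2575 CPM in dMSN 1 and 2473 CPM in dMSN 2. None of 8 oligodendrocyte genes was higher in dMSN 2 (median ratio 0.815), and 2 of 8 astrocyte and 2 of 8 microglia genes were. Other lists went either way. Higher in dMSN 2 were 7 of 8 endothelial genes (median ratio 1.17). Of the genes with at least 1 CPM in dMSN, 5 of 14 muscle genes (median ratio 0.897) and 3 of 10 bone and cartilage genes (0.791) were higher there. Among genes known as MEF2 targets in neurons 9 of 11 were higher (median ratio 1.18). The part of pyramidal neuron RNA in the Mef2c level of dMSN was not tested.

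**Figure D4:**
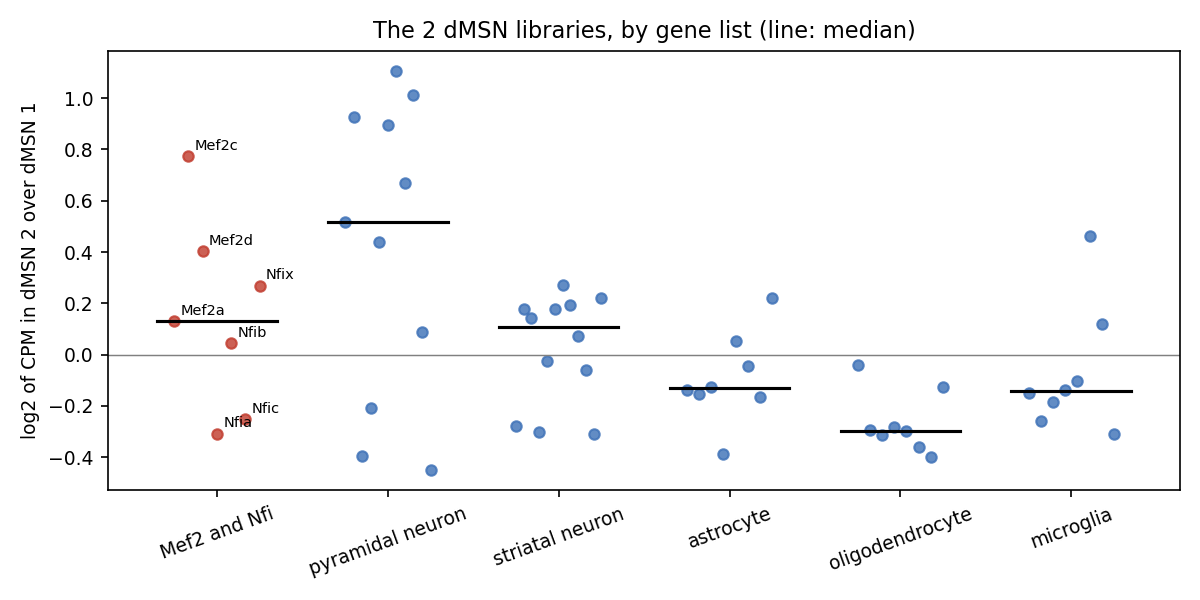
Points give the log2 ratio of CPM in dMSN 2 over dMSN 1 for the 7 genes and for 5 marker lists, and lines mark medians. Mef2c, at 1.71 times, lies within the range of the pyramidal neuron genes, and 7 of 12 striatal neuron genes lie above the zero line, the highest at 1.21 times.

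Among the regulators of MEF2, 6 of 16 rose and 2 fell in young tissue, where 21.7% of all genes rose and 13.7% fell. Camk4, a calcium- and calmodulin-dependent kinase, rose by 2.75, and Ppp3ca, a catalytic subunit of calcineurin, rose by 1.55 on the log2 scale. Of the class IIa deacetylases Hdac5 rose by 0.95, while Hdac4, Hdac7 and Hdac9 did not pass, at 0.04, -0.13 and 0.42. In dMSN against yMSN 4 of the 16 rose and 6 fell, shares near those of all genes (32.1% and 35.4%). Ppp3ca rose by 3.68 to 2312 ± 56.0 CPM (SD, n = 2), Camk4 by 3.03, Ppp3r1, the regulatory subunit of calcineurin, by 2.36, and Cdk5, a neuronal kinase, by 2.17. Hdac7 fell by 2.05, Mapk7, a kinase that activates MEF2 proteins, by 1.90, and the acetyltransferase Ep300 by 1.63.

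Of 11 genes known as MEF2 targets in neurons, 6 rose and 0 fell in young tissue, where 21.7% of all genes rose and 13.7% fell. In dMSN against yMSN 8 rose and 1 fell, where 32.1% of all genes rose and 35.4% fell. The list's median log2 change was 0.88 in the first comparison and 2.77 in the second, against 0.10 and -0.11 over all genes. Grin1, the obligatory NMDA receptor subunit, rose by 5.04 in young tissue and by a further 4.85 in dMSN against yMSN. Arc, an activity-induced synaptic gene, stood at 281.3 and 405.5 CPM in dMSN, against 3.64 CPM in yMSN, and Nr4a1, an activity-induced nuclear receptor, at 133.2 and 204.6 CPM, against 13.4 CPM. Klf6, a zinc finger factor, fell by 1.54. These 8 targets rose in dMSN while the Mef2 genes themselves did not pass against yMSN, and that difference was not tested.

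Genes that NFI factors are known to control were described in 3 lists. Of 9 glial genes, 4 of which also stand in the astrocyte list, 5 rose and 0 fell in young tissue, where 21.7% of all genes rose and 13.7% fell. In dMSN against yMSN 6 rose and 3 fell, the count that fell being near the 35.4% of all genes. Gfap, the intermediate filament of astrocytes, stood at 204.7 and 156.5 CPM in dMSN, against 1.54 CPM in yMSN. S100b, a calcium-binding protein of astrocytes, stood at 249.7 and 222.7 CPM in dMSN, against 5.76 CPM in yMSN. Fabp7, a fatty acid binding protein of radial glia, fell by 2.61, and the Wnt inhibitor Apcdd1 fell by 2.83. Against SP, 6 of these 9 genes rose and 2 fell in dMSN, as did 8 and 1 of the 11 MEF2 targets. In that comparison 39.1% of all genes rose and 33.1% fell.

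Of 4 progenitor genes, 3 fell and 0 rose in young tissue, where 13.7% of all genes fell and 21.7% rose. In dMSN against yMSN 2 fell and 0 rose, where 35.4% of all genes fell and 32.1% rose. These shares of all genes also apply to the counts of neuronal genes and relatives below. Ezh2, the methyltransferase of Polycomb complex 2, fell by 1.42 in young tissue and by 4.50 in dMSN against yMSN, and Sox9, a factor of radial glia and astrocytes, fell by 1.28 in young tissue. Of 3 tested neuronal genes known as NFI targets in the cerebellum, 1 rose and 1 fell in young tissue and all 3 fell in dMSN against yMSN. Cntn2, an axonal adhesion molecule, rose by 1.99 in young tissue and fell by 1.75 in dMSN against yMSN. Its levels were 137.6 CPM in SP, 67.2 CPM in HP, 265.7 CPM in yMSN, 554.1 CPM in yCA, and 79.9 and 78.6 CPM in dMSN. Gabra6, a receptor subunit of cerebellar granule cells, had at most 1 read in any library and was not tested. Srf, the serum response factor that shares the MADS box, and its coactivators Myocd, Mkl1 and Mkl2 made up the tested relatives. In young tissue 1 of 4 fell, Myocd by 1.96, and 0 rose, with Srf at 0.21. In dMSN against yMSN Mkl2 rose by 1.26 and Mkl1 by 0.64, and Myocd fell by 3.35.

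**Figure D5:**
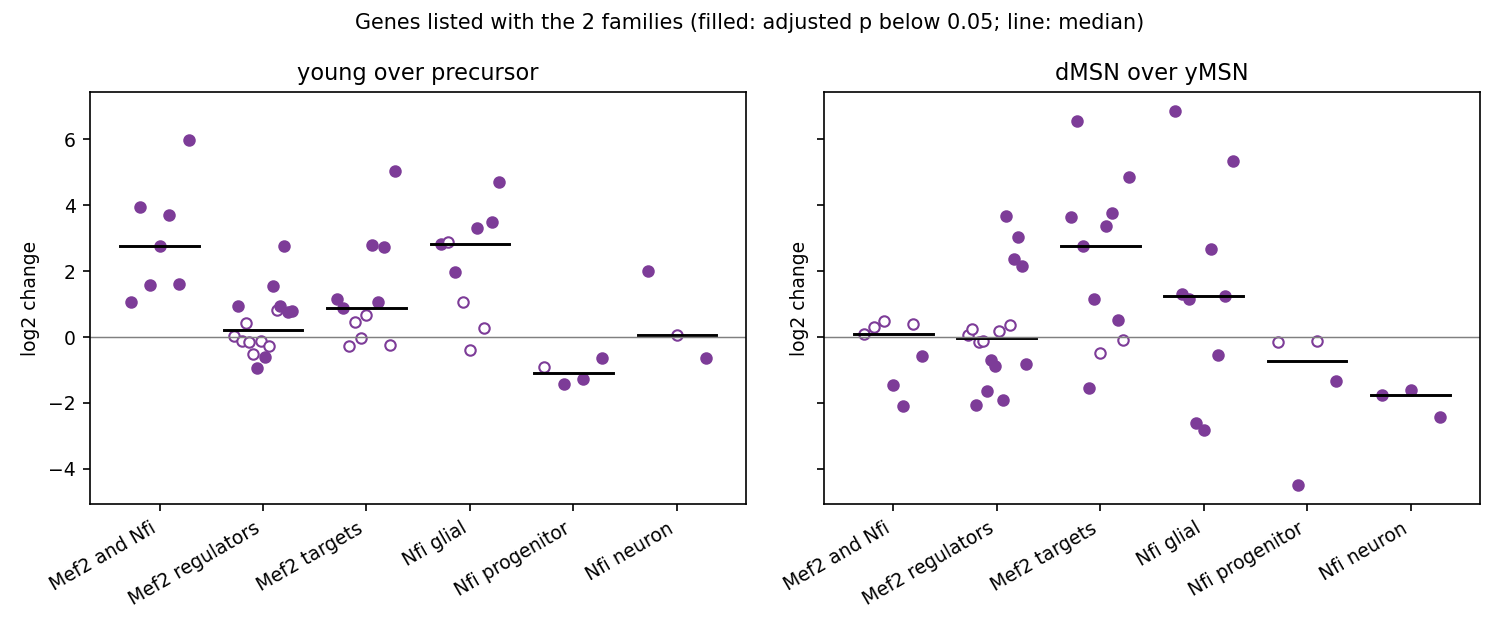
Points give the log2 change of each tested gene of 6 lists in young over precursor tissue (left) and in dMSN over yMSN (right), filled where the adjusted p is below 0.05, with lines at the medians. The MEF2 targets have medians of 0.88 and 2.77, and the 7 factors 2.75 and 0.08.

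Likeness of pattern was measured as the root mean square distance between log2(CPM + 1) values over the 6 libraries, after centring each gene on its own mean. Between members, Mef2d and Nfic were the most alike at 0.281, followed by Mef2a and Mef2d at 0.342 and Nfia and Nfib at 0.480, and Mef2a and Nfix the least at 2.00. Outside the families, Mef2a was most like Agbl3, Osbpl6 and Slc25a27, at 0.0616 to 0.0723, and Mef2d like Dirc2, Tspyl5 and Agtpbp1, at 0.0772 to 0.0962. Mef2c was most like Syt16, Kbtbd5 and Gucy1a3, at 0.154 to 0.250, and Nfic like Timp2, Tnfrsf12a and Pcdh1, at 0.0947 to 0.140. The genes nearest to Nfia were Mamstr, Frmd3 and Tmem229b, at 0.0966 to 0.180, and those nearest to Nfib were Mustn1, Thbs4 and Hfe2, at 0.229 to 0.247. Nfix had no close neighbour, with Actn2, Glra2 and Ablim3 at 0.349 to 0.493. Actn2, the alpha-actinin of sarcomeres, and Kbtbd5, Mamstr, Mustn1 and Hfe2 are known from skeletal muscle, and Actn2 stood at 139.8 CPM in yMSN, 365.1 CPM in yCA, and 58.1 and 52.8 CPM in dMSN. The 1 added to each CPM damps the changes of genes near 0, so a small distance does not mean a like fold change. From HP to yCA, Kbtbd5 went from 0.0287 to 23.0 CPM, Mustn1 from 0.287 to 16.0 CPM and Hfe2 from 0.861 to 35.7 CPM. The tissues of the other neighbours are not described here.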

How the data were processed

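The deposited files hold raw read counts per gene symbol, 1 per library, with the summary lines of HTSeq at the end of each. The submitters' processing notes list HTSeq, edgeR, TopHat and TopHat2 2.0.2, Bowtie 1.0.0, and for methylation tools Bismark and methylKit, with mm9 and NCBIM37 as builds, without saying which step used which. Strand use is not given in the sources used here, so reads of overlapping antisense genes cannot be told apart. The HTSeq lines for reads in no feature (5.34% to 9.81%), ambiguous reads (1.38% to 2.01%) and reads without a unique alignment (17.3% to 27.3%) were left out. Methylation data of the series were not used here.

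The tests used edgeR 4.0.16 (limma 3.58.1, R 4.3.3) on these counts, with filterByExpr, TMM scaling, and quasi-likelihood F tests over 19192 genes with Benjamini-Hochberg adjustment at 0.05. The stage and lineage differences were tested with lineage and stage as terms (2 residual degrees of freedom), the other comparisons with 1 mean per cell group (1 degree of freedom, from the dMSN pair). Each SE is the log2 change divided by the square root of F. The labels do not say that the dMSN libraries came from different animals, so p-values may measure technical spread. Log2 ratios of single pairs use a prior count of 2, and all intervals, and the limit of 3 reads used where none was counted, cover counting error alone. Alternatives were RLE scaling, other filters, DESeq2 1.42.0, the other model and libraries left out. The steps were run on simulated counts whose spread was taken from the fit with 1 mean per cell group. Such counts hold no spread beyond that of the dMSN pair, so they cannot test the effect of having 1 library per group. The members and lists were chosen with earlier results of these data known. Named genes are the 7 members, up to 6 per list by size of change with at least 1 CPM on average, and the 3 nearest in pattern per member, from 5 CPM upwards. Hdac4, Hdac9, Sox9, Gabra6, Srf and the markers beside the results were named to describe a subgroup, after their values were seen. Promoters are from RefSeq, build GRCm38.p6.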

Additional observations from a re-analysis of the deposited data

How the results depend on the processing

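Each of the 7 genes stayed higher and past the threshold in young against precursor tissue under 12 alternatives (highest adjusted p = 0.036) and in dMSN against SP under 10 (highest adjusted p = 0.036), in edgeR or DESeq2. Leaving out HP, SP, yCA or yMSN left the young change to a single pair of libraries. Nfia, for example, rose by 2.53 without HP and stood 2.54 higher in yMSN over SP on the log2 scale. Those runs repeat the single-pair ratios and do not show that the change recurs. With RLE scaling the median change over all genes was -0.02 in young tissue (0.10 with TMM) and 0.08 in dMSN against SP (0.20 with TMM). The share of called genes that were higher in young tissue was 61.3%, and 51.2% in DESeq2. For the difference between lineages in that change it was 59.9%, and 42.9% in DESeq2 and 49.8% with no filter. The count of genes called in young tissue was 6798, and it ranged from 3590 to 7355 with single libraries left out and was 4421 without both dMSN libraries, an alternative chosen after the data had been seen. For the lineages the count of 0 became 60 in DESeq2 and 356 with 1 mean per cell group, each with 1 of the 7 genes (Nfix), and ranged from 0 to 1515 with single libraries left out, with 0 to 2 of the 7 (Nfib and Nfix without HP or SP). In dMSN against yMSN the 12948 genes called ranged from 12923 to 12943 without HP, SP or yCA. The model of lineage and stage gave 11504, and in that model 6609 without dMSN 1 and 7073 without dMSN 2, with 2 of the 7 in each. Without yMSN that comparison could not be fitted, nor dMSN against SP without SP. The sign turned only for values that had not passed, and the cause was not tested. With libraries left out, the lineage values of Mef2a, Mef2d and Nfic ranged, on the log2 scale, from -0.20 to 0.13, -0.37 to 0.0061 and -0.30 to 0.21, and the dMSN against yMSN values of Mef2a and Mef2c from -0.063 to 0.10 and -0.38 to 0.40, both ends for Mef2c and the low end for Mef2a coming from the model of lineage and stage. With all libraries that model gave -3.4e-04 for Mef2a. Mef2d in SP over HP was 0.00 with TMM, -0.0089 with RLE scaling and -0.0029 with scaling by the total count. No paired analysis was possible because only dMSN has a second replicate number. With 1 library per group elsewhere, spread between animals cannot be judged.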
